A study of Mus musculus with 49 samples.

Results

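The clustered histone genes are the mouse genes whose symbols start with Hist1h, Hist2h, Hist3h or Hist4h. Members were taken as those with 10 or more counts in at least 2 of 25 RNA libraries of mouse small-intestinal crypt cells, and 43 of the 68 such symbols in the table met that rule, out of 24062 genes in all. They comprised 5 of 6 linker histone H1 genes, 10 of 18 H2A genes, 11 of 19 H2B genes, 8 of 12 H3 genes and 9 of 13 H4 genes. All 43 also met the rule on the 22 SMART-Seq libraries alone, so none entered through a TruSeq library only. Just inside the rule lay Hist1h4b, Hist1h3i, Hist1h3b and Hist1h4k, each with 10 counts in 2 libraries and a highest count of 12, 15, 11 and 17. Just outside lay Hist1h2bf, Hist1h2bk, Hist2h3b and Hist1h4a, with 10 counts in 1 library and highest counts of 11, 12, 10 and 18. Of the 68 symbols, 9 had no count in any library.

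Most clustered histone genes are transcribed as a cell duplicates its DNA, have no intron, and give messages that end in a conserved stem-loop bound by SLBP in place of a poly(A) tail. Linker histone H1 binds the DNA between nucleosomes, while H2A, H2B, H3 and H4 form the nucleosome core. Some members, among them the human counterparts of Hist1h1c and Hist2h2be, are known to give polyadenylated messages as well. In the intestine, crypt stem and progenitor cells divide rapidly and mature secretory cells do not. Both kits named in the labels start from poly(A): TruSeq V2 captures polyadenylated RNA on oligo(dT) beads, and SMART-Seq v4 primes reverse transcription with oligo(dT).

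All mice were of a mixed B6;129 background and cells came from the proximal small intestine. Unsorted crypts came from Rbpj F/F; Villin-CRE mice given 2 mg tamoxifen on 2 days and taken on day 3 (Rbpj crypts, 2 libraries). They also came from Atoh1 F/F mice given the Notch inhibitor DBZ at 48 mg/kg and taken at 38 hours (DBZ crypts, 2), and from Atoh1 F/F; Villin-CRE mice taken 3 weeks after 5 daily tamoxifen doses of 1 mg (Atoh1 crypts, 2). Villin drives Cre in the intestinal epithelium. Sorted groups were CD274+CD69+ cells of mice labelled wild type, after 4 injections of 50 µg/kg diphtheria toxin (DT, 2) or without treatment (control, 2). Bmi1-GFP cells of Bmi-1GFP/+ mice were taken 36 hours after 10 Gy (1) or without treatment (3), and Lgr5-GFP cells came from Lgr5EGFP-DTR (2) and Lgr5EGFP-IRES-CRE-ERT2 mice (Lgr5-GFP-Cre, 3). Enteroendocrine (CD24 high, lectin negative, 2) and Paneth cells (CD24 high, lectin high, 2) came from untreated wild-type mice. Goblet cells (2) came from wild-type mice taken 115 hours after the start of the same DBZ dosing, and the labels give them the CD274 and CD69 stain. The labels call replicates biological, and do not say whether mice were pooled.

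Library totals ran from 11179085 to 27371108 counts. In Rbpj crypts Rbpj itself stood at 21.0 and 28.4 CPM, against 39.6 and 32.8 CPM in DBZ crypts; a count over the whole gene does not show whether a floxed part was lost. Atoh1 stood at 1.49 and 1.74 CPM in Atoh1 crypts, far under the 58.9 and 124 CPM of DBZ crypts. Sums of the 4 stem cell markers were 4789 to 6898 CPM in Lgr5-GFP-Cre cells, and the 4 Paneth markers summed to 183200 to 296300 CPM in Paneth cells. Goblet libraries carried 51770 to 89940 CPM of 4 goblet markers and 68380 to 78420 CPM of 4 enterocyte markers, against 1029 to 1538 and 1266 to 2373 CPM in Lgr5-GFP-Cre cells. Enteroendocrine libraries carried 3344 to 6810 CPM of 4 enteroendocrine markers and also 44310 to 50530 CPM of the Paneth markers. The Paneth markers were high in the stem cell libraries too. They summed to 38740 to 44970 CPM in Lgr5-GFP-Cre cells and to 146600 to 201100 CPM in Lgr5-GFP-DTR cells. Levels are given throughout as CPM, counts scaled to library size with TMM factors.

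The kit labels need a caution before any result. Of the 3 libraries labelled TruSeq, both Rbpj libraries had few clustered histone counts, whereas CD274+CD69+ control replicate 1 resembled its SMART-Seq partner. Over 14928 genes, log2 CPM of these 2 control libraries correlated at 0.993 across genes, and the other 14 pairs of libraries within a group gave 0.934 to 0.988. Their counts differed by a chi-square of 4.24 per gene over 12396 genes, where counting noise alone gives about 1, against 29.0 to 224 in the other pairs. They were therefore kept as separate libraries, and replicate 1 is called the library labelled TruSeq. Whether that label is right could not be checked, so this pair may not compare 2 kits. No replicate of Rbpj crypts was made with SMART-Seq, so kit and genotype cannot be told apart there.

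The stretches before the start sites of 7 members are printed because they pair a member of low level with a more abundant one of its class in the Rbpj libraries (Hist1h1b and Hist1h1c, Hist1h2ae and Hist3h2a, Hist1h4d and Hist1h4i); Hist2h2bb is added as an H2B gene of low level. Each is the 120 bases upstream of the RefSeq start on GRCm38.p6, and capitals mark a match on either strand to 1 of 4 motifs. These are the CCAAT box found in many promoters, the TATA box written TATAAA where the basal machinery binds, the octamer ATTTGCAT known from H2B promoters, and a box written AAACACA known from H1 promoters.
Hist1h1b (chr13:21780626-21780745, minus strand): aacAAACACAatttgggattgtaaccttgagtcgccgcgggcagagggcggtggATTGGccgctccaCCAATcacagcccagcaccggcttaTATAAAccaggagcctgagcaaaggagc
Hist1h1c (chr13:23738687-23738806, plus strand): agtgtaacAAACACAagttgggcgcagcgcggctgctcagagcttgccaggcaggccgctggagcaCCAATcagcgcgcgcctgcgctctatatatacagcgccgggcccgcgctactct
Hist1h2ae (chr13:23571221-23571340, minus strand): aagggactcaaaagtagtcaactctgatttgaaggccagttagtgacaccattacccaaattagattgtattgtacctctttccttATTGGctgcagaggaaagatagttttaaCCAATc
Hist3h2a (chr11:58954565-58954684, plus strand): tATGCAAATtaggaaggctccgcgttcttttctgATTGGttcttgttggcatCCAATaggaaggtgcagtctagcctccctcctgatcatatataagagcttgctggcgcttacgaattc
Hist2h2bb (chr3:96269580-96269699, plus strand): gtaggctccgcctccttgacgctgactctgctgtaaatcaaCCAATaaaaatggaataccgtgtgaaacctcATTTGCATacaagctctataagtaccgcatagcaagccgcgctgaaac
Hist1h4d (chr13:23581448-23581567, plus strand): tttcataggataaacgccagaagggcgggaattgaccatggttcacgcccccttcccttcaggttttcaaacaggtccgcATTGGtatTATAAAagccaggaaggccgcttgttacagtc
Hist1h4i (chr13:22041363-22041482, minus strand): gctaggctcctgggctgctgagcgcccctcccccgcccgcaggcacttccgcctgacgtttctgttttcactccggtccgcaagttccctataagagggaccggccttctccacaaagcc
RefSeq promoter entries were found for 38 of the 43 members (39 promoters). Within 250 bases upstream, CCAAT occurred in 33 of 39 (84.6%), against 33.8% of 32851 promoters of all genes, and was found in all 5 H1, 10 H2A, 10 H2B and 6 H3 promoters but in 2 of 8 H4 promoters. The octamer occurred in 10 of 39, namely 5 of 10 H2A and 5 of 10 H2B promoters, against 1.6% of all promoters. Some neighbouring H2A and H2B genes on opposite strands share upstream bases, as Hist1h2ae and Hist1h2bg do. One match can then be counted for both, so the 39 promoters are not all separate stretches. The H1 box occurred in 4 of 5 H1 promoters (6.25% of all promoters) and TATAAA in 51.3% of the members' promoters (12.4% of all). None of the 4 letter strings contains another. Hist1h1b and Hist1h1c both held CCAAT and the H1 box; their levels in Rbpj crypts, given further on, were far apart.

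The clustered histones were a small part of every library. Their 43 genes took 0.00846% and 0.0100% of all counts in the Rbpj libraries, against 0.0311% and 0.0302% in DBZ crypts and 0.0222% and 0.0327% in Atoh1 crypts. The Rbpj shares were the lowest 2 of the 25, with Paneth replicate 1 next at 0.0102%. The library labelled TruSeq of the CD274+CD69+ control cells had 0.0186%, and its SMART-Seq partner 0.0168%. Lgr5-GFP-Cre cells, at 0.0338% to 0.0604%, included the highest share of all. In bulk libraries, fewer cells in DNA synthesis and less histone RNA per cell cannot be told apart.

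**Figure D1:**
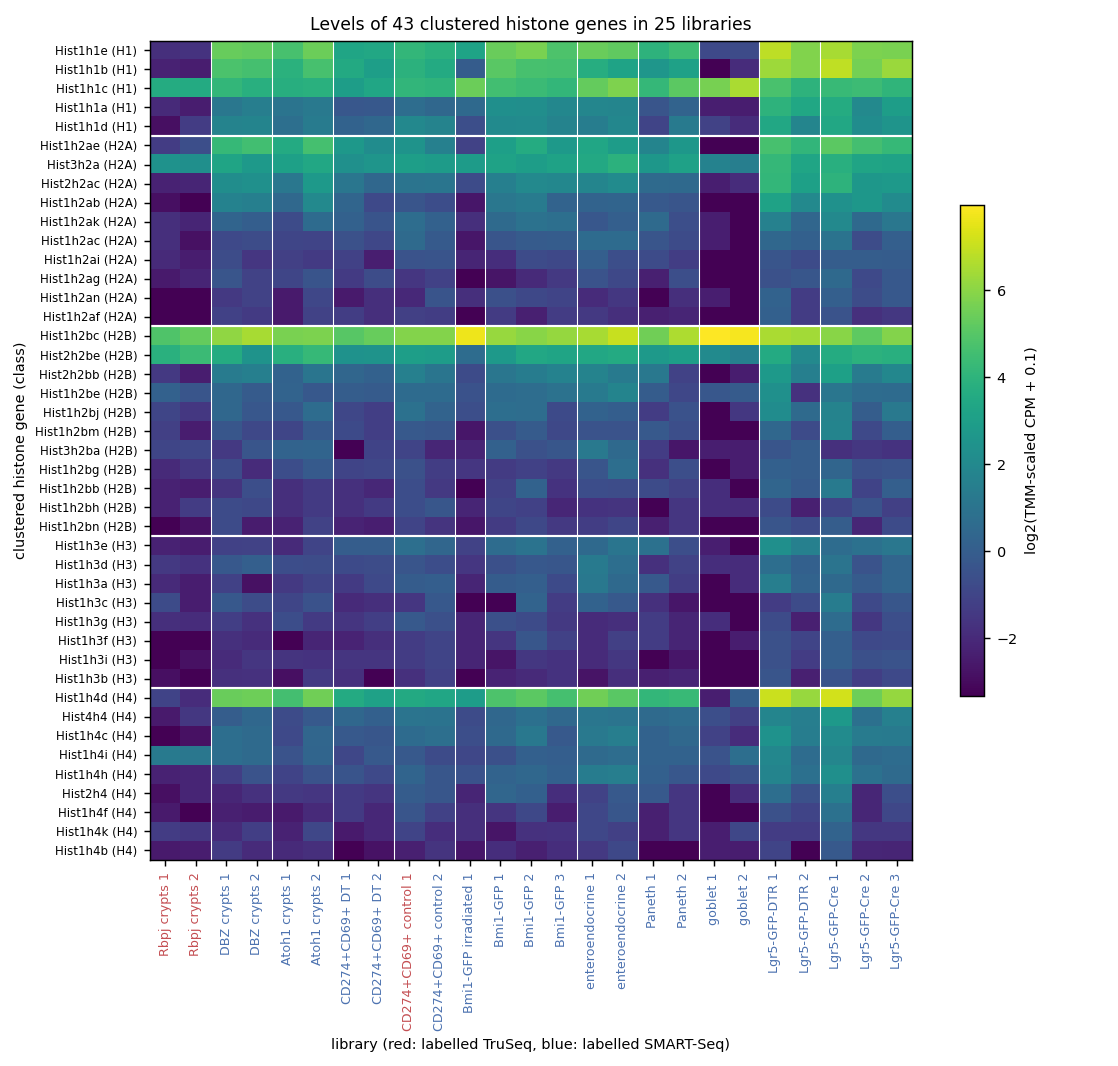
Levels of the 43 clustered histone genes (rows, grouped by class) in 25 libraries (columns, labelled by group and replicate), as log2 of TMM-scaled CPM plus 0.1. Hist1h1b, Hist1h1e, Hist1h2ae and Hist1h4d are dark in both Rbpj and both goblet libraries, while Hist1h2bc and Hist1h1c are bright there, and control replicate 1, labelled TruSeq, matches its neighbour.

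Among the linker histones, Hist1h1b (encoding H1.5) had 0.114 and 0.0854 CPM in Rbpj crypts, against 27.5 and 25.2 CPM in DBZ crypts and 14.8 and 25.6 CPM in Atoh1 crypts. Hist1h1e (encoding H1.4) had 0.190 and 0.214 CPM in Rbpj crypts, against 40.2 and 37.9 CPM in DBZ crypts and 25.3 and 43.4 CPM in Atoh1 crypts. Neither gene's Rbpj libraries came near those of the other unsorted crypts. Hist1h1c (encoding H1.2) had 12.2 and 11.7 CPM in Rbpj crypts, against 17.5 and 13.9 CPM in DBZ crypts and 13.4 and 14.1 CPM in Atoh1 crypts. For Hist1h1c both Rbpj libraries lay below the other 4, which overlapped between DBZ and Atoh1 crypts. Hist1h1a and Hist1h1d, at up to 0.299 CPM in Rbpj crypts, were also low against 1.64 CPM or more in the 4 other unsorted libraries.

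Among the H2A, H2B and H4 genes, too, some members were far lower in Rbpj crypts and others were not. Of the H2A genes, Hist1h2ae had 0.304 and 0.555 CPM in Rbpj crypts, against 18.9 and 23.6 CPM in DBZ crypts and 11.9 and 24.6 CPM in Atoh1 crypts. Hist3h2a, an H2A gene outside the large cluster on chromosome 13, had 5.39 and 4.87 CPM in Rbpj crypts, against 9.71 and 6.91 CPM in DBZ crypts and 8.49 and 11.0 CPM in Atoh1 crypts. The first of these H2A genes was still detected in Rbpj crypts, at 8 and 13 counts, but far lower, and the second was lower by less. Of the H4 genes, Hist1h4d had 0.379 and 0.171 CPM in Rbpj crypts, against 41.8 and 45.1 CPM in DBZ crypts and 24.4 and 46.4 CPM in Atoh1 crypts. Hist1h4i had 2.35 and 2.14 CPM in Rbpj crypts, above the 1.60 and 1.41 CPM of DBZ crypts and the 0.650 and 1.19 CPM of Atoh1 crypts. It was the only member whose Rbpj libraries both exceeded all 4 other unsorted libraries.

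Of the H2B genes, Hist1h2bc, the member with most counts, had 29.1 and 39.6 CPM in Rbpj crypts, against 68.5 and 90.9 CPM in DBZ crypts and 51.8 and 54.2 CPM in Atoh1 crypts. Hist2h2be had 14.3 and 20.6 CPM in Rbpj crypts, against 12.5 and 5.50 CPM in DBZ crypts and 14.0 and 19.0 CPM in Atoh1 crypts. Its Rbpj libraries lay above those of DBZ crypts and overlapped those of Atoh1 crypts. Hist2h2bb had 0.266 and 0.0854 CPM in Rbpj crypts, against 2.48 and 2.83 CPM in DBZ crypts and 1.07 and 1.98 CPM in Atoh1 crypts. The 8 H3 genes were low everywhere, with a summed level of 1.25 and 0.684 CPM in Rbpj crypts, against 3.11 and 2.71 CPM in DBZ crypts and 2.18 and 2.81 CPM in Atoh1 crypts. A value of 3 counts was worth 0.114 and 0.128 CPM in the 2 Rbpj libraries, so differences among the lowest members were not detectable at this depth.

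In all, 5 members reached 1 CPM in both Rbpj libraries (Hist1h1c, Hist1h2bc, Hist1h4i, Hist2h2be and Hist3h2a) and 37 stayed under 0.6 CPM in both; the remaining one was Hist1h2be, at 1.02 and 0.684 CPM. In DBZ crypts 15 members reached 1 CPM in both libraries, and in Atoh1 crypts 14. Both Rbpj libraries lay below all 4 other unsorted libraries for 33 of 43 members, where 25.3% of all genes did so, and above them for 1 member, where 24.1% did so. Read against DBZ crypts in the edgeR quasi-likelihood fit, 16 of 41 members tested were called lower and 0 higher (12.4% of genes were called lower, 23.6% in either direction), or 10 lower without Rbpj replicate 1. Against Atoh1 crypts 13 were called lower and 0 higher (12.2% of genes lower, 26.1% in either direction). The rule names this contrast between kits, so these counts describe the libraries and are not offered as tests. Both comparisons share the Rbpj libraries.

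Among RefSeq gene models, 40 members spanned 375 to 911 bases. The 3 longer ones were Hist1h2bc (8282 bases, chr13:23684199-23692480), Hist1h2be (37455 bases) and Hist2h2be (2667 bases), and all 3 were among the 6 members of highest level in Rbpj crypts. Hist1h1c (725 bases), Hist3h2a (508 bases) and Hist1h4i (403 bases) made up the other 3 and have short models. That order is by level. Relative to the 4 other unsorted libraries, the mean log2 difference of the 3 longer ones was -0.93 for Hist1h2bc, -0.20 for Hist1h2be and 0.56 for Hist2h2be. It was -0.29 for Hist1h1c, -0.78 for Hist3h2a and 0.90 for Hist1h4i. Members of low level with short models gave values such as 0.18 (Hist1h4k) and -0.57 (Hist1h2bh), on few counts.

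**Figure D2:**
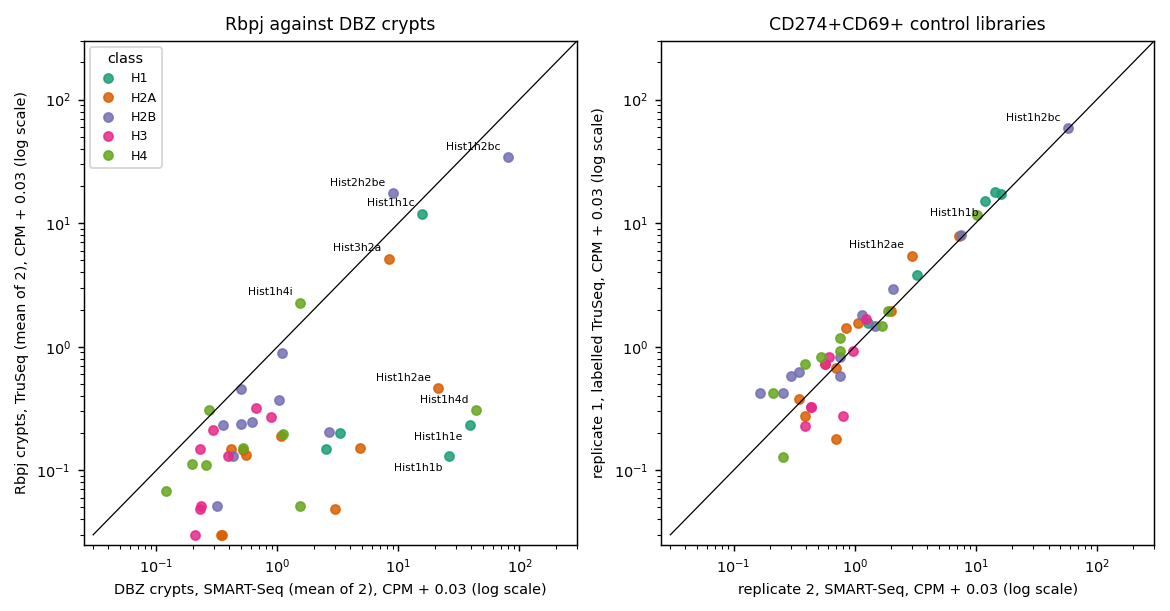
Levels of the 43 members on log axes (CPM plus 0.03), coloured by class, with a line of equality: on the left, Rbpj crypts (TruSeq) against DBZ crypts (SMART-Seq), means of 2 libraries; on the right, CD274+CD69+ control replicate 1 (labelled TruSeq) against replicate 2 (SMART-Seq). Most members lie far under the line on the left, where Hist1h1b has under 0.12 CPM against over 25 CPM, and along the line on the right.

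The CD274+CD69+ control cells are the one group with both kit labels, and the label of replicate 1 could not be checked. The median log2 difference of the 43 members, the library labelled TruSeq minus its SMART-Seq partner, was 0.21, where the median of all 14928 genes was 0, with 30 members higher and 13 lower. Single members differed by between -1.64 and 1.07. No member differed by 2 or more in either direction, where 0.0402% of all genes were that much higher and 0.496% that much lower; with 1 library for each label there is no test. At 1 or more in either direction were 6.98% of members and 4.27% of all genes. Hist1h1b had 15.03 CPM in the library labelled TruSeq and 12.0 CPM in its partner, Hist1h1e had 17.8 and 14.6 CPM, and Hist1h4d had 11.6 and 10.3 CPM. Hist1h2bc had 59.0 CPM in the library labelled TruSeq and 58.1 CPM in its partner. These values were nearer to each other than to any Rbpj library. Taken over all 3 libraries labelled TruSeq and all 22 SMART-Seq ones, 0 members lay above every SMART-Seq library and 0 below, where 0.0536% of all genes did so in each direction. Without the control library, the Rbpj libraries lay below every SMART-Seq library for 4 members, Hist1h1e, Hist1h4c, Hist1h4h and Hist4h4 (3.63% of all genes), and above every one for 0 (4.9% of all genes).

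Genes that act beside the histones in the cell cycle were compared by their summed levels and their calls. The 24 DNA replication genes, such as the helicase subunits Mcm2 to Mcm7 and the clamp Pcna, summed to 2092 and 1635 CPM in Rbpj crypts, against 2528 and 1765 CPM in DBZ crypts and 2049 and 2455 CPM in Atoh1 crypts, so Rbpj replicate 1 lay among the other unsorted libraries and replicate 2 below them. Without Hist1h2bc, the clustered histones came to 1.96 and 2.75 CPM per 100 CPM of replication genes in Rbpj crypts, against 7.93 and 10.8 in DBZ crypts and 6.41 and 8.90 in Atoh1 crypts. The 15 mitosis genes summed to 2364 and 1887 CPM in Rbpj crypts, against 2438 and 1713 CPM in DBZ crypts and 1606 and 1939 CPM in Atoh1 crypts. Of these 15 genes 5 were called lower against DBZ crypts, Ccnb1 and Cdc20 among them, and 1, Mki67, higher, with a median log2 fold change of -0.44. In the Rbpj against DBZ fit, 2 of 24 replication genes were called lower, with a median log2 fold change of -0.22, against -1.95 for the 41 members (-1.91 with the 3 members at 0 counts in Rbpj crypts set to a bound of 3 counts) and -0.02 for all genes. When the summed replication genes were held level between libraries, 14 members were called lower and 0 higher against DBZ crypts, where 3.65% of all genes were called lower and 10.4% higher.

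Replication-independent histone genes were also lower in Rbpj crypts. The 11 genes listed as replication-independent histones summed to 2668 and 2336 CPM in Rbpj crypts, against 4849 and 4567 CPM in DBZ crypts. Most of them, though not all, are known as polyadenylated and expressed outside DNA synthesis. Of these 11 genes 7 were called lower and 0 higher. In this contrast, which is also one between kits, 12.4% of all genes were called lower and 11.2% higher. Of the 11, H3f3b, encoding the variant H3.3, had 738 and 653 CPM in Rbpj crypts, against 1568 and 1545 CPM in DBZ crypts. Slbp, encoding the stem-loop binding protein, had 86.2 and 88.2 CPM in Rbpj crypts, against 191 and 153 CPM in DBZ crypts. Of 12 genes for histone mRNA processing, 4 were called lower and 1 higher. Their fold changes were positive for 8 and negative for 4, with a median log2 of 0.13. Small structured RNAs, which are not polyadenylated messages, summed to 7.82 and 5.77 CPM in Rbpj crypts, against 6.05 and 6.63 CPM in DBZ crypts. Of the 9 tested 1, Rpph1, was called lower and 0 higher, with 4 positive and 5 negative fold changes. The 4 goblet markers summed to 5657 to 7124 CPM in Rbpj crypts and 4148 to 4703 CPM in DBZ crypts, and 4 stromal and endothelial markers to 15.9 to 17.9 CPM and 6.11 to 11.1 CPM, with none of the 8 at 0; the part of cell make-up in the histone values was not tested.

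**Figure D3:**
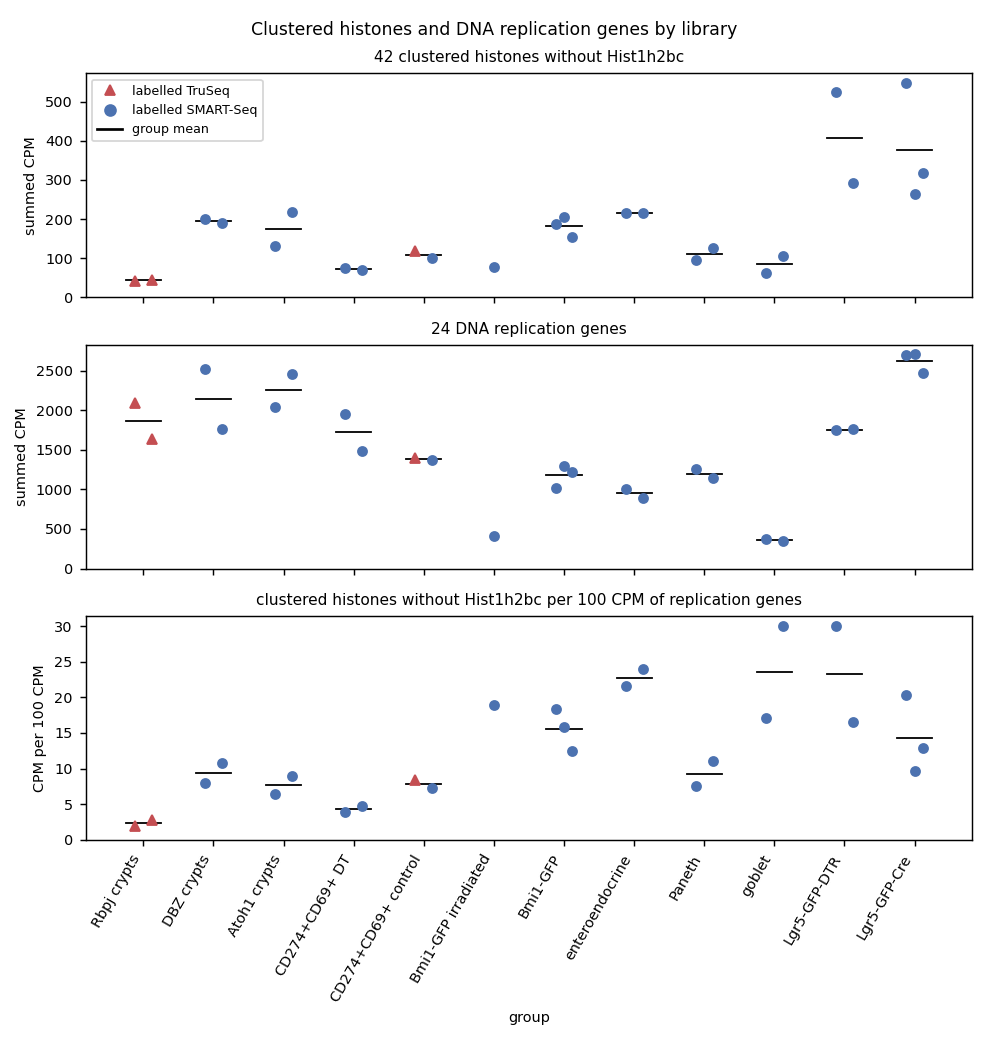
Summed CPM of the 42 members other than Hist1h2bc (top), of 24 DNA replication genes (middle), and the first per 100 CPM of the second (bottom), by group; points are libraries, triangles those labelled TruSeq, and bars are group means. Rbpj crypts have the lowest histone sums (40.9 and 45.0 CPM); of their replication sums, 2092 CPM lies inside the range of the other unsorted crypts and 1635 CPM lies under it.

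Comparisons within SMART-Seq show how the clustered histones vary between cell types with the kit label constant. Bmi1-GFP, enteroendocrine, Paneth and goblet cells were each set against Lgr5-GFP-Cre stem cells, whose 3 libraries are shared by all 4 comparisons, in an edgeR quasi-likelihood fit over 22 libraries with Benjamini-Hochberg adjustment over 14806 genes. Of the 43 members 41 passed its filter on low counts; Hist1h4b and Hist1h4k did not. Enteroendocrine, Paneth and goblet cells were released with Dispase and the Lgr5-GFP-Cre cells with TrypLE, and the goblet mice had also received DBZ, so cell type, enzyme and treatment cannot be told apart in those comparisons. Since the labels do not say which libraries come from separate mice, p-values measure the spread between these libraries.

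Most of the family was lower in goblet cells. In the goblet against Lgr5-GFP-Cre comparison, 35 of 41 members were called lower and 2 higher, where 31.1% of all genes were called lower and 37.4% higher. Hist1h1b had 0 and 0.169 CPM in goblet cells, against 119, 48.9 and 76.3 CPM in Lgr5-GFP-Cre cells (adjusted p = 1.6e-09, edgeR). Hist1h2ae had no count in either goblet library and 34.7, 24.2 and 19.1 CPM in Lgr5-GFP-Cre cells, at least 198-fold lower when 3 counts over the goblet group are taken as the floor (edgeR adjusted p = 2.16e-08). Hist1h1e had 0.456 and 0.507 CPM in goblet cells, against 89.1, 54.0 and 52.7 CPM in Lgr5-GFP-Cre cells (log2 fold change -7.06, SE 0.50, edgeR adjusted p = 2.13e-09). Hist1h4d had 0.0912 and 0.929 CPM in goblet cells, against 147, 43.9 and 72.1 CPM in Lgr5-GFP-Cre cells. In none of these 4 genes did the groups overlap. All 10 H2A and all 8 H3 genes tested were called lower, with 7 of 11 H2B, 6 of 7 H4 and 4 of 5 H1 genes.

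The 2 members that were higher in goblet cells were Hist1h2bc and Hist1h1c. Hist1h2bc had 251 and 225 CPM in goblet cells, against 62.5, 35.9 and 58.5 CPM in Lgr5-GFP-Cre cells (log2 2.19, SE 0.27, edgeR adjusted p = 1.69e-06). Hist1h1c had 50.3 and 92.5 CPM in goblet cells, against 19.3, 21.6 and 16.5 CPM in Lgr5-GFP-Cre cells (log2 1.90, SE 0.30, edgeR adjusted p = 2.09e-05). Both goblet libraries lay above all 20 other SMART-Seq libraries for Hist1h2bc, the only member to do so (16.7% of all genes), and below them for 20 members (15.2% of all genes). Hist2h2be and Hist3h2a stayed above 1 CPM in goblet cells and were called lower with TMM scaling. Hist2h2be had 4.19 and 2.96 CPM in goblet cells, against 12.1, 15.4 and 13.7 CPM in Lgr5-GFP-Cre cells. Hist3h2a had 3.10 and 2.79 CPM, against 13.8, 9.62 and 8.87 CPM. Both were called higher with the replication genes held level (log2 0.92, edgeR adjusted p = 0.0429, and log2 1.00, edgeR adjusted p = 0.0151). Under that scaling 80.8% of all genes were called higher, so the turn is not particular to Hist2h2be and Hist3h2a. The members at or above 1 CPM in both goblet libraries were thus 4 of the 5 that reached that level in both Rbpj libraries. The fifth, Hist1h4i, had 0.638 and 1.60 CPM in goblet cells, against 3.52, 1.36 and 1.48 CPM in Lgr5-GFP-Cre cells, and was not called.

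In goblet cells the replication genes were lower as well. The 24 replication genes summed to 368 and 352 CPM in goblet cells, against 2697, 2715 and 2474 CPM in Lgr5-GFP-Cre cells, and 23 of 24 were called lower (median log2 -3.44). The members' median was -4.49, or -3.51 with the 11 members at 0 counts in goblet cells set to their bound, against 0.22 for all genes. With the replication genes held level, 6 members were called higher and 13 lower, where 80.8% of all genes were called higher and 3.03% lower. That scaling moves the median of all genes to 3.08. The members' median was then -1.78, with no bound set for the 11 members at 0 counts. It falls on Hist1h2ac, with 1 and 0 goblet counts, and cannot be set beside the bounded -3.51. All 11 replication-independent histones were called lower in goblet cells, among them Cenpa, the centromeric H3 variant (log2 -5.16, SE 0.32, edgeR adjusted p = 5.82e-10). Slbp had 36.2 and 32.2 CPM in goblet cells, against 182, 165 and 190 CPM in Lgr5-GFP-Cre cells (log2 -2.39, SE 0.24, edgeR adjusted p = 9.41e-08). Markers of other cell types moved with these differences. Called higher were 4 of 4 enterocyte markers, at the sums given above, and 4 of 4 enteroendocrine markers. So were 4 of 5 immune and 2 of 4 stromal and endothelial markers, while 3 of 4 Paneth markers were called lower. The part of these markers' cell types in the histone values was not tested.

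**Figure D4:**
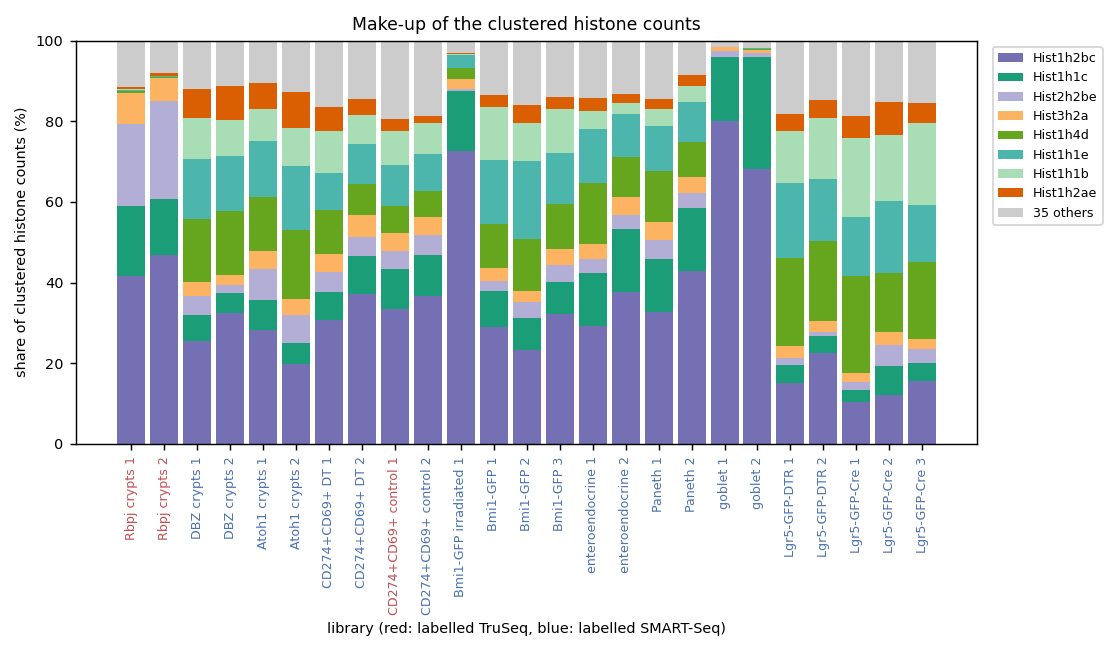
Share of all clustered histone counts (%) taken by 8 named members and by the 35 others, per library. Hist1h2bc and Hist1h1c together fill most of both goblet bars and of the irradiated Bmi1-GFP bar; Hist1h2bc holds 80.0% and 68.1% in goblet libraries and 10.2% to 15.6% in Lgr5-GFP-Cre libraries.

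In enteroendocrine cells members were called in both directions. Against Lgr5-GFP-Cre cells 6 of 41 members were called lower and 3 higher, where 20.8% of all genes were called lower and 23.1% higher (44% in all). Hist1h1b had 13.0 and 9.25 CPM in enteroendocrine cells, against 119, 48.9 and 76.3 CPM in Lgr5-GFP-Cre cells (log2 -2.87, SE 0.39, edgeR adjusted p = 3.26e-05). The higher members were Hist1h1c, with 39.6 and 54.6 CPM in enteroendocrine cells (log2 1.30, SE 0.30, edgeR adjusted p = 0.00207), Hist1h2bc, with 89.6 and 129 CPM (log2 1.06, SE 0.27, edgeR adjusted p = 0.00469), and Hist3h2ba. Hist3h2ba, an H2B gene of low level, had 2.24 and 1.34 CPM in enteroendocrine cells, against 0.195, 0.260 and 0.211 CPM in Lgr5-GFP-Cre cells (edgeR adjusted p = 0.00894). Without enteroendocrine replicate 2 the count of called members was 3 and Hist1h2bc was no longer called; without replicate 1 it was 4 and Hist3h2ba was no longer called. Of the replication genes 23 of 24 were called lower, with a median log2 of -1.47, against a members' median of -0.74 and 0 for all genes. The balance of calls turned with the replication genes held level, which moves the median of all genes to 1.46: 11 members were called higher and 1, Hist1h1b, lower. Under that scaling 72.3% of all genes were called higher and 1.11% lower, and the members' median of 0.73 lay below that of all genes, so the turn is not particular to the members. Of the replication-independent histones 5 were called lower and 3 higher, H3f3b among the higher (log2 0.62, SE 0.17, edgeR adjusted p = 0.00805). Markers of other cell types moved as well. Called higher were 3 of 4 goblet, 3 of 5 immune, 1 of 4 Paneth and 1 of 4 stromal and endothelial markers. Called lower were 1 of 5 immune and 2 of 4 enterocyte markers. The part of these markers' cell types in the histone values was not tested.

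In Paneth cells members were called in 1 direction. Against Lgr5-GFP-Cre cells 12 of 41 members were called lower and 0 higher, where 17.7% of all genes were called lower and 20.8% higher. Hist1h1b had 5.93 and 8.81 CPM in Paneth cells, against 119, 48.9 and 76.3 CPM in Lgr5-GFP-Cre cells (log2 -3.45, SE 0.40, edgeR adjusted p = 1.17e-05). Hist1h1a had 0.692 and 1.12 CPM in Paneth cells, against 12.4, 3.90 and 7.73 CPM in Lgr5-GFP-Cre cells (log2 -3.11, SE 0.50, edgeR adjusted p = 0.000163), and Hist1h2ae had 3.36 and 6.25 CPM, against 34.7, 24.2 and 19.1 CPM (log2 -2.42, SE 0.43, edgeR adjusted p = 0.000456). No Paneth library of these 3 genes reached an Lgr5-GFP-Cre library. Hist1h2bc, with 46.0 and 94.9 CPM in Paneth cells, and Hist1h1c, with 18.3 and 34.8 CPM, were not called. The members' median was -1.62, against -1.16 for the replication genes and 0.03 for all genes. With the replication genes held level, which moves the median of all genes to 1.16, 7 members were called lower and 2, Hist1h1c and Hist1h2bc, were called higher, where 0.919% of all genes were called lower and 55.5% higher. With TMM scaling, 4 of 4 goblet and 2 of 5 immune markers were called higher. So was 1 of 4 each of the enteroendocrine, enterocyte, and stromal and endothelial markers, with 0 called lower. Their part in the histone values was not tested.

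Bmi1-GFP cells were released with TrypLE like the stem cells. Against Lgr5-GFP-Cre cells 9 of 41 members were called lower and 0 higher, where 20.8% of all genes were called lower and 27.1% higher. The members' share called lower was thus near that of all genes, and their share called higher was not. Fold changes were negative for 38 members and positive for 3, with a median log2 of -0.87, against 0.11 for all genes. Hist1h1b had 34.1, 25.3 and 24.99 CPM in Bmi1-GFP cells, against 119, 48.9 and 76.3 CPM in Lgr5-GFP-Cre cells (log2 -1.53, SE 0.31, edgeR adjusted p = 0.000816). Hist1h2ae had 8.26, 12.2 and 6.72 CPM in Bmi1-GFP cells, against 34.7, 24.2 and 19.1 CPM in Lgr5-GFP-Cre cells (log2 -1.52, SE 0.35, edgeR adjusted p = 0.00242). Hist1h4d had 28.6, 34.7 and 25.3 CPM in Bmi1-GFP cells, against 147, 43.9 and 72.1 CPM in Lgr5-GFP-Cre cells (log2 -1.57, SE 0.39, edgeR adjusted p = 0.0037). The groups did not overlap in these genes. The calls fell to 3 without Lgr5-GFP-Cre replicate 1, the library with the highest clustered histone share, and to 3 without Bmi1-GFP replicate 1 and 5 without replicate 3. With the replication genes held level, which moves the median of all genes to 1.27, 0 members were called lower and 4 higher: Hist1h1c, Hist1h2bc, Hist3h2a and Hist3h2ba. Under that scaling 1.26% of all genes were called lower and 68.6% higher, and the members' median was 0.30. Markers of other cell types moved with the Bmi1-GFP comparison. The 4 enteroendocrine markers summed to 3717 to 7581 CPM in Bmi1-GFP cells, against 193 to 207 CPM in Lgr5-GFP-Cre cells, and 4 of 4 were called higher. The 5 immune markers summed to 512 to 799 CPM in Bmi1-GFP cells, against 45.9 to 51.4 CPM in Lgr5-GFP-Cre cells (4 of 5 called higher), and the 4 stromal and endothelial markers to 12.9 to 29.1 CPM, against 2.73 to 3.58 CPM (3 of 4 called higher). None of these markers was at 0 throughout either group, and their part in the histone values was not tested.

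**Figure D5:**
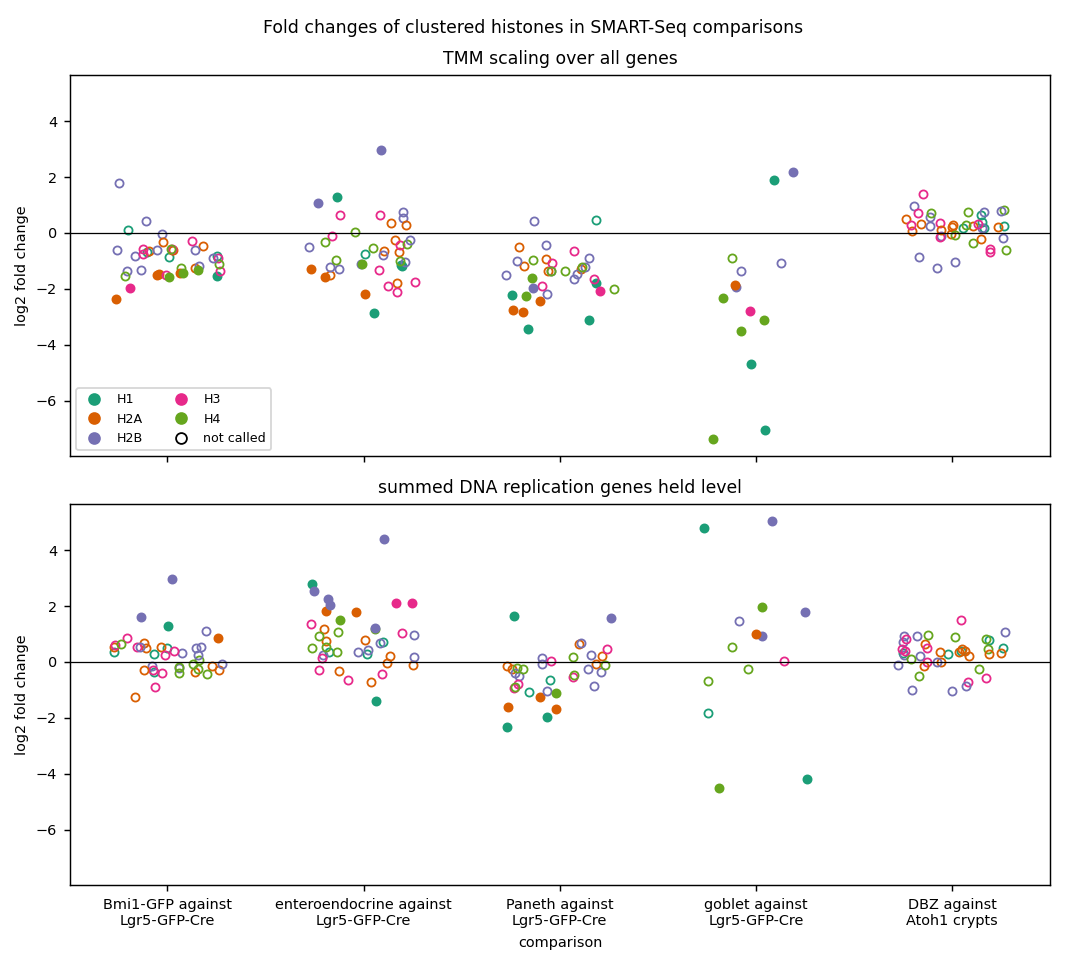
Log2 fold changes of the members in 5 SMART-Seq comparisons (filled points called at an edgeR adjusted p under 0.05, open points not), coloured by class, with TMM scaling (top) and with the summed DNA replication genes held level (bottom); members with 3 or fewer counts in either group are left out (27 in the goblet and 5 in the Paneth comparison). Points shift upward between panels in the 4 sorted comparisons and barely in DBZ against Atoh1 crypts.

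DBZ crypts were compared with Atoh1 crypts, both unsorted and both SMART-Seq. Against Atoh1 crypts 0 of 41 members were called in edgeR, 0 passed an unadjusted p of 0.05 and DESeq2 called 0, where edgeR called 2.11% of all genes, 1.78% higher and 0.338% lower, so the members' count was near that of all genes. The median log2 fold change was 0.24, with 28 of 41 members positive, against -0.05 for the replication genes and 0.02 for all genes. These are the SMART-Seq comparators of the Rbpj crypts, and their 4 libraries covered 24.4 to 46.4 CPM for Hist1h4d and 25.3 to 43.4 CPM for Hist1h1e.

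Groups without a test gave 2 further patterns. In the single irradiated Bmi1-GFP library Hist1h1b had 0.862 CPM, against 34.1, 25.3 and 24.99 CPM in unirradiated Bmi1-GFP cells, while Hist1h2bc had 208 CPM, against 75.8, 62.8 and 72.6 CPM. Hist1h1c had 42.6 CPM in the irradiated library, against 23.5, 21.0 and 17.8 CPM. At least 2 log2 units under the unirradiated mean lay 13% of all genes, and 5.67% lay that far above it. Of 43 members 12 lay that far under and 0 that far above. The replication genes moved the same way (12 of 24 that far under), and the 4 enterocyte markers summed to 63970 CPM, against 2795 to 7824 CPM in unirradiated cells; their part was not tested. In CD274+CD69+ cells the members without Hist1h2bc summed to 75.5 and 69.5 CPM after diphtheria toxin, against 117 CPM in the control library labelled TruSeq and 100.1 CPM in its SMART-Seq partner. The replication genes summed to 1956 and 1486 CPM after diphtheria toxin, against 1396 and 1374 CPM in the control libraries, so the 2 sums differed in opposite directions.

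Single-gene values within the family are uncertain, because coding sequences of histone paralogs are near-identical, reads were 75 bases, and no source used here says how reads matching several copies were treated. Neighbouring members can lie on opposite strands at short distance, and no strand setting was given.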

How the data were processed

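The deposited table holds raw read counts per gene for 25 RNA libraries, treated as not normalized by the authors because each column holds whole numbers with its own total. Bowtie2, TopHat2 2.0.6, DESeq2 and the mm10 build appear, without roles, in the submitters' processing notes. How reads were counted, by strand or with several matches, is not stated there. Columns were matched to samples by name (0 unmatched); the other 24 of 49 samples were not analysed here.

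The tests used edgeR 4.0.16 under R 4.3.3, with filterByExpr (minimum count 10, minimum total 15), TMM, and 1 quasi-likelihood fit over 22 libraries of 10 groups (common dispersion 0.0784), leaving out the mixed-kit control group and the single irradiated library. A gene was called at a Benjamini-Hochberg adjusted p under 0.05 over all 14806 genes. In counts simulated for goblet against Lgr5-GFP-Cre (12557 genes), 27% of 2-fold and 93% of 4-fold changes were recovered. Only genes with a mean above 1 CPM were simulated, at a fixed dispersion, so these shares do not cover members of lower level. Levels are CPM scaled by TMM over all 25 libraries; single libraries were compared on log2 CPM with a prior count of 2. No fold is given where a group held 3 counts or fewer, except a stated bound.

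Members, lists and comparisons were chosen with earlier results of these data known. Named members are the 4 of highest TruSeq mean per class, the 5 of highest SMART-Seq mean, the 3 largest and smallest kit differences, and up to 3 of lowest adjusted p per direction and comparison; of other lists, up to 3 called genes and the most expressed one not called. Some are left out for length, and Hist1h2be and the members listed by level in Rbpj crypts were named after their values were seen. DESeq2 1.42.0 (test and size factors), other filters, a replicate block and left-out libraries were alternatives; the Rbpj against Atoh1 comparison and the scaling to replication genes were added after seeing the data. RefSeq symbols of GRCm38.p6 matched all 43 members through synonyms.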

Additional observations from a re-analysis of the deposited data

How the results depend on the processing

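Other size factors, no filter, the DESeq2 test, the 24-library fit and the replicate block kept each count of called members within 1.5 times and on its side. The exceptions came with the summed replication genes held level, added after seeing the data: 4 members called in Bmi1-GFP cells (9 otherwise) and 19 in goblet cells (37 otherwise), while the 12 called in enteroendocrine cells (9 otherwise) turned to mostly higher; the offset itself moves every gene up in these groups. Leaving out 1 library gave 3 to 11 called members for Bmi1-GFP, 3 to 10 for enteroendocrine, 8 to 15 for Paneth and 32 to 37 for goblet cells, each against Lgr5-GFP-Cre, 0 for DBZ against Atoh1 crypts, 10 to 15 for Rbpj against DBZ and 9 to 13 for Rbpj against Atoh1 crypts. Members below every SMART-Seq library in those labelled TruSeq numbered 0, and 0 to 4 with 1 TruSeq library left out. Without Hist1h2bc the members' mean share in Rbpj crypts was 0.00514%, against 0.00924% with it. Of 70 calls of named members, 23 were lost in at least 1 setting other than that offset, with no change of sign. With the offset 20 were lost and 6 changed sign: in enteroendocrine cells Hist1h1a (0.28), Hist1h4d (0.34) and Hist2h2ac (0.21), and in goblet cells Hist1h3d (0.021, on few goblet counts), Hist2h2be (0.92) and Hist3h2a (1.00), of which the last 2 were called higher.

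Same-numbered Bmi1-GFP and Lgr5-GFP-Cre deviations correlated at -0.06, 0.01 and 0.05 across genes, so replicate numbers did not visibly pair those libraries. The same held for Paneth cells (0.02 and -0.02) and goblet cells (0.02 and 0.02) against Lgr5-GFP-Cre cells. For enteroendocrine against Lgr5-GFP-Cre cells the same-numbered values were 0.11 and 0.13, weak but positive. A replicate block gave 9 called members for Bmi1-GFP, 7 for enteroendocrine (9 without the block), 12 for Paneth and 37 for goblet cells, and 15 for Rbpj against DBZ crypts. Rbpj and Atoh1 crypts correlated at -0.20, and crossing their numbers gave 13 called members, the same count as with the labelled numbers.

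With 2 libraries in most groups, members under about 1 CPM rest on few counts, and their differences were often not detectable at this depth. The cause of the low histone levels in Rbpj crypts was not tested, since kit and genotype coincide.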
